A study of Arabidopsis thaliana with 27 samples.

Results

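Oil body coat genes of Arabidopsis thaliana seeds were followed in 3 genotypes through darkness after a red light pulse. The 10 genes were taken by locus identifier from the 33612 rows of the count table: the oleosins OLEO1 (AT4G25140), OLEO2 (AT5G40420), OLEO3 (AT5G51210), OLEO4 (AT3G27660), AT3G01570, AT3G18570 and AT1G48990, the caleosins CLO1 (AT4G26740) and CLO2 (AT5G55240), and the steroleosin HSD1 (AT5G50600). Seeds were of the hid1 mutant, which lacks the noncoding RNA HID1, of the phyB mutant, affected in the red light receptor phytochrome B, and of the wild type Col-0 (WT). All had been dried for about 2 months, and received the red pulse that activates phytochrome B, preceded by white light during plating, and each genotype was sampled after 12, 24 and 48 h of darkness, with 3 libraries of poly(A) RNA in each of the 9 groups. The labels name no mutant alleles. They call the replicates biological without saying whether each came from its own plants, so the p-values measure the spread between these libraries. Whole seeds hold embryo, endosperm and seed coat, and fewer cells of a type cannot be told apart from less RNA per cell.

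Seeds store oil as triacylglycerol in droplets called oil bodies. Oleosins are small proteins with a long hydrophobic hairpin that sits in the droplet, and they keep the droplets small and stop them from fusing while the seed is dry. Caleosins are calcium-binding oil body proteins with peroxygenase activity, and steroleosins are oil body dehydrogenases that act on sterols. Their transcripts are made during seed maturation under the regulators ABI3, FUS3 and LEC2, and the coat proteins are degraded when the oil is used after germination.

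The libraries held 14750212 to 26293148 counts, of which 6167 to 223107 fell on the 10 genes. In hid1 libraries HID1 had 2, 0 and 1 counts in all over the 3 libraries of 12, 24 and 48 h, while WT averaged 10.9 to 24.5 CPM (counts scaled to a common library size). PHYB transcript was present in phyB seeds, at 56.7 ± 2.28 CPM at 12 h (SD, n = 3), against 117 ± 2.63 CPM in WT, at 69.7 ± 4.42 CPM at 24 h, against 125 ± 0.982 CPM in WT, and at 112 ± 7.62 CPM at 48 h, against 95.4 ± 1.61 CPM in WT. The share of counts from the mitochondrial genome was 0.0178 to 0.0202% for phyB libraries labelled 12 h, against 0.0764 to 0.16% in hid1 and WT at 12 h and 0.0151 to 0.028% in all libraries of 24 h. The phyB libraries labelled 12 h thus lay within the range of the 24 h libraries on this measure. Their chloroplast share, 0.086 to 0.0922%, lay outside both that of hid1 and WT at 12 h (0.311 to 0.375%) and that of all libraries of 24 h (0.166 to 0.309%). The part of these shares in the results on phyB at 12 h was not tested. Scaling factors were 0.684 to 0.729 in phyB at 48 h and 0.889 to 1.19 in the other libraries.

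The promoters of 3 genes are shown because the genes behind them keep to the common pattern (OLEO1, CLO1) or depart from it (OLEO3). Each is the 200 bases before the annotated gene start (RefSeq, TAIR10.1), 5′ to 3′ on the strand of the gene. Capitals mark ACGTG, the core of the abscisic acid response element that bZIP factors such as ABI5 bind, and CATGCA, the core of the RY element that B3 factors such as ABI3 and FUS3 bind, on either strand. Where both motif strands overlap, as in CACGTG, the run was counted as 1 site.
OLEO1, chr4:12900230-12900429, plus strand: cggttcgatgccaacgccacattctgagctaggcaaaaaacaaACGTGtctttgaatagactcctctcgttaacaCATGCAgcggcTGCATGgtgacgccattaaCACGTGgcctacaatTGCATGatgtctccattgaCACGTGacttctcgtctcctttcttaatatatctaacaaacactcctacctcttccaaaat
OLEO3, chr5:20819868-20820067, plus strand: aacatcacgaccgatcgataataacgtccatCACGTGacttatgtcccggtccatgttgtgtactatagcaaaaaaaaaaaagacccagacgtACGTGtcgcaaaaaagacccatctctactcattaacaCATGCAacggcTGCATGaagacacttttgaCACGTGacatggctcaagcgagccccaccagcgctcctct
CLO1, chr4:13475372-13475571, minus strand: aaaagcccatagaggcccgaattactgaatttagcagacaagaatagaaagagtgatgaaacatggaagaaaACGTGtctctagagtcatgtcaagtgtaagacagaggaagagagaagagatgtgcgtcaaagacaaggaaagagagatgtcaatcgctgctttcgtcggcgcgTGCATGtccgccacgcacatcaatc
OLEO1 and OLEO3 each held 3 ACGTG sites, with 3 and 2 CATGCA sites, and CLO1 held 1 of each. Of the 9 members' windows read, 9 held CATGCA, against 6.69% of the windows of 27443 protein-coding genes. ACGTG was in 5 of the 9 windows, against 19.8% of all, and both motifs were in 5, against 1.56% of all. OLEO2, OLEO4, CLO2 and HSD1 had no ACGTG in this window, and the windows of AT3G01570 and AT3G18570 run into the neighbouring genes AT3G01572 and AT3G18580. A match is a run of letters and was not tested as a binding site.

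The genes lie on 4 of the 5 nuclear chromosomes. By the RefSeq annotation of TAIR10.1, OLEO1 spans 12900430 to 12901577 on chromosome 4 (plus strand), and CLO1 spans 13473516 to 13475371 on the same chromosome (minus strand). Chromosome 5 holds OLEO2 at 16173340 to 16174783 (minus strand), OLEO3 at 20820068 to 20820944 (plus strand), CLO2 at 22405896 to 22407351 (plus strand) and HSD1 at 20589702 to 20591937 (minus strand). On chromosome 3 are OLEO4 at 10243244 to 10245023 (plus strand), AT3G01570 at 221939 to 222827 (minus strand) and AT3G18570 at 6395790 to 6396624 (minus strand), while AT1G48990 lies on chromosome 1 at 18121434 to 18122155 (plus strand). The ends of OLEO1, OLEO2 and AT3G01570 overlap genes on the opposite strand by 44, 15 and 51 bases, and whether counting used strand is not known here. In HSD1, 100% of the exonic 100-base stretches recur in the genome, since a second copy, AT5G50700, lies at 20623024 to 20625279 on chromosome 5. The other 9 members had no such stretch.

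OLEO1, the main seed oleosin, had the highest level per transcript length of the 10 genes in every group. In the authors' FPKM (fragments scaled by transcript length and library size) of WT at 12 h, OLEO1 stood at 3550, OLEO2 at 1721, AT3G01570 at 989, OLEO4 at 741, CLO2 at 385 and CLO1 at 179.7 FPKM. OLEO3 at 119 FPKM and AT1G48990 at 115 FPKM followed, then AT3G18570 at 68.8 and HSD1 at 19.6 FPKM. These are group values without a spread, so neighbours in this order, such as OLEO3 and AT1G48990, were not tested against each other. OLEO1 gave 45.0% of the members' summed FPKM in WT at 12 h and 30.6% in WT at 48 h.

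**Figure D1:**
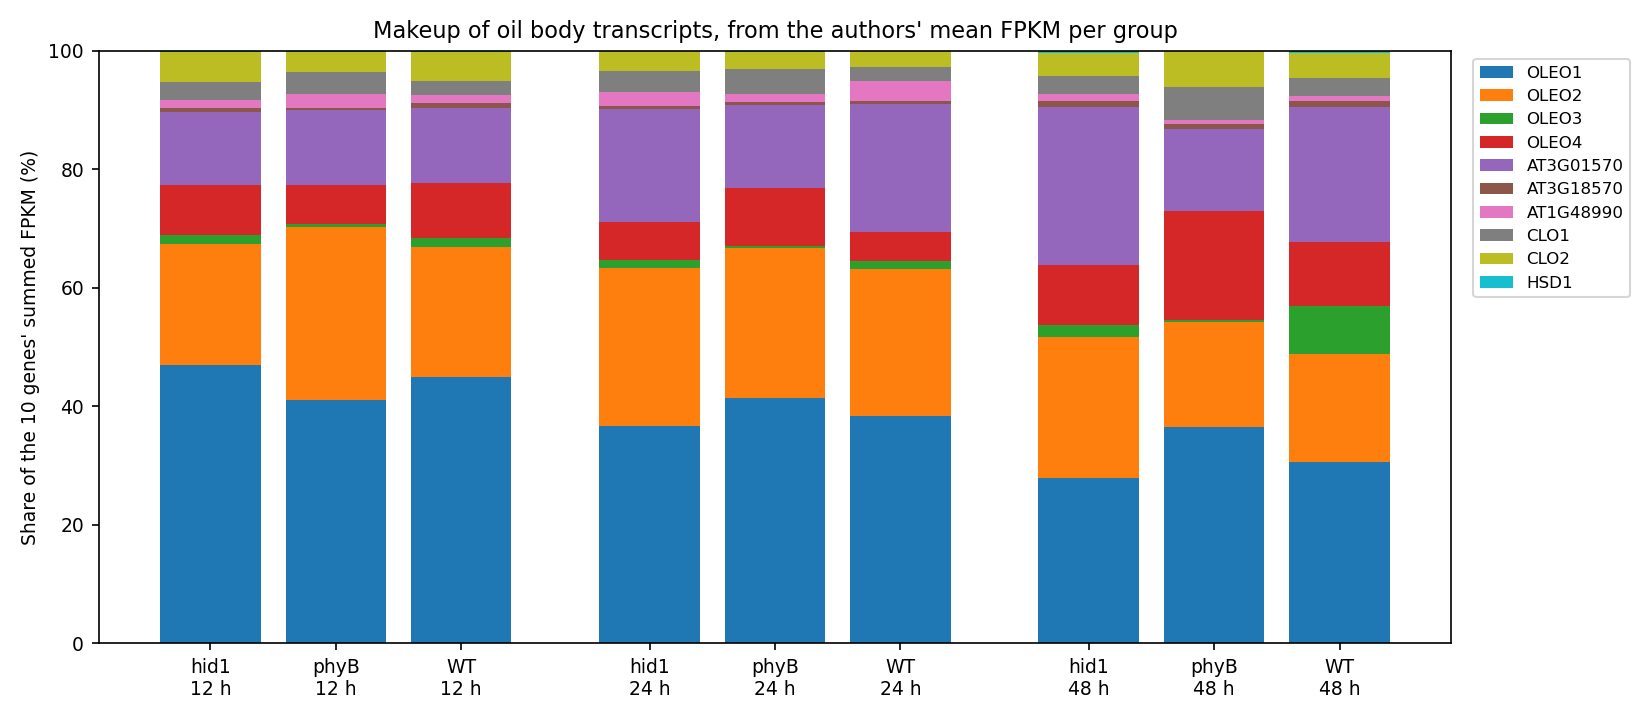
Share of the 10 genes' summed FPKM (vertical axis, %) taken by each gene in hid1, phyB and WT seeds at 12, 24 and 48 h (stacked bars, from the authors' FPKM per group). OLEO1 takes the largest share in each of the 9 groups, OLEO4 reaches 18.3% in phyB at 48 h, and OLEO3 reaches 8.09% in WT at 48 h.

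The makeup differed between the genotypes at 48 h. OLEO4 was second in phyB at 48 h with 1863 FPKM, 18.3% of the sum, against 10.1% in hid1 and 10.8% in WT. AT3G01570 took 26.7% of the sum in hid1, 13.8% in phyB and 22.9% in WT, and was second in hid1 and WT. OLEO3 took 2.03% in hid1, 0.370% in phyB and 8.09% in WT. FPKM describes composition within a library, and all tests below rest on raw counts.

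In WT seeds the oil body transcripts were high at 12 h and fell through both intervals. Summed over the 10 genes, they took 0.721 ± 0.0153% of counts at 12 h, 0.179 ± 0.0185% at 24 h and 0.0327 ± 0.00829% at 48 h (SD, n = 3 each). OLEO1 had 3268, 3658 and 3615 CPM in the 3 libraries of 12 h, 542, 663 and 659 CPM at 24 h, and 67.5, 118 and 94.1 CPM at 48 h. The 3 times did not overlap. Between 12 and 24 h all 10 members fell, against 32.4% of the 20465 genes tested that were lower, by a median of 2.47 on the log2 scale beside a median over all genes of 0.00. The smallest fall was that of AT1G48990, at log2 -1.05 ± 0.09 (SE), and CLO2 and OLEO4 fell by 3.12 and 3.21. Reads of HSD1 are shared with its copy; its log2 fold change was -5.06 ± 0.44.

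From 24 to 48 h, 8 of the 10 fell further in WT, against 38.0% of all genes that were lower. AT1G48990, which had fallen least before, fell most: it had 1.97, 2.80 and 1.90 CPM at 48 h, against 41.1, 46.1 and 40.8 CPM at 24 h, a log2 fold change of -4.24 ± 0.13. OLEO1 and OLEO2 fell by 2.74 and 2.86, CLO1 and CLO2 by 2.08 and 1.78, and OLEO4 by 1.22. OLEO3 did not pass (log2 0.18 ± 0.14, adjusted p = 0.25), with 18.2, 22.4 and 19.1 CPM at 48 h against 18.6, 19.5 and 14.7 CPM at 24 h, and HSD1 did not pass either, at 12, 27 and 11 counts in the libraries of 48 h against 43, 12 and 8 counts at 24 h.

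**Figure D2:**
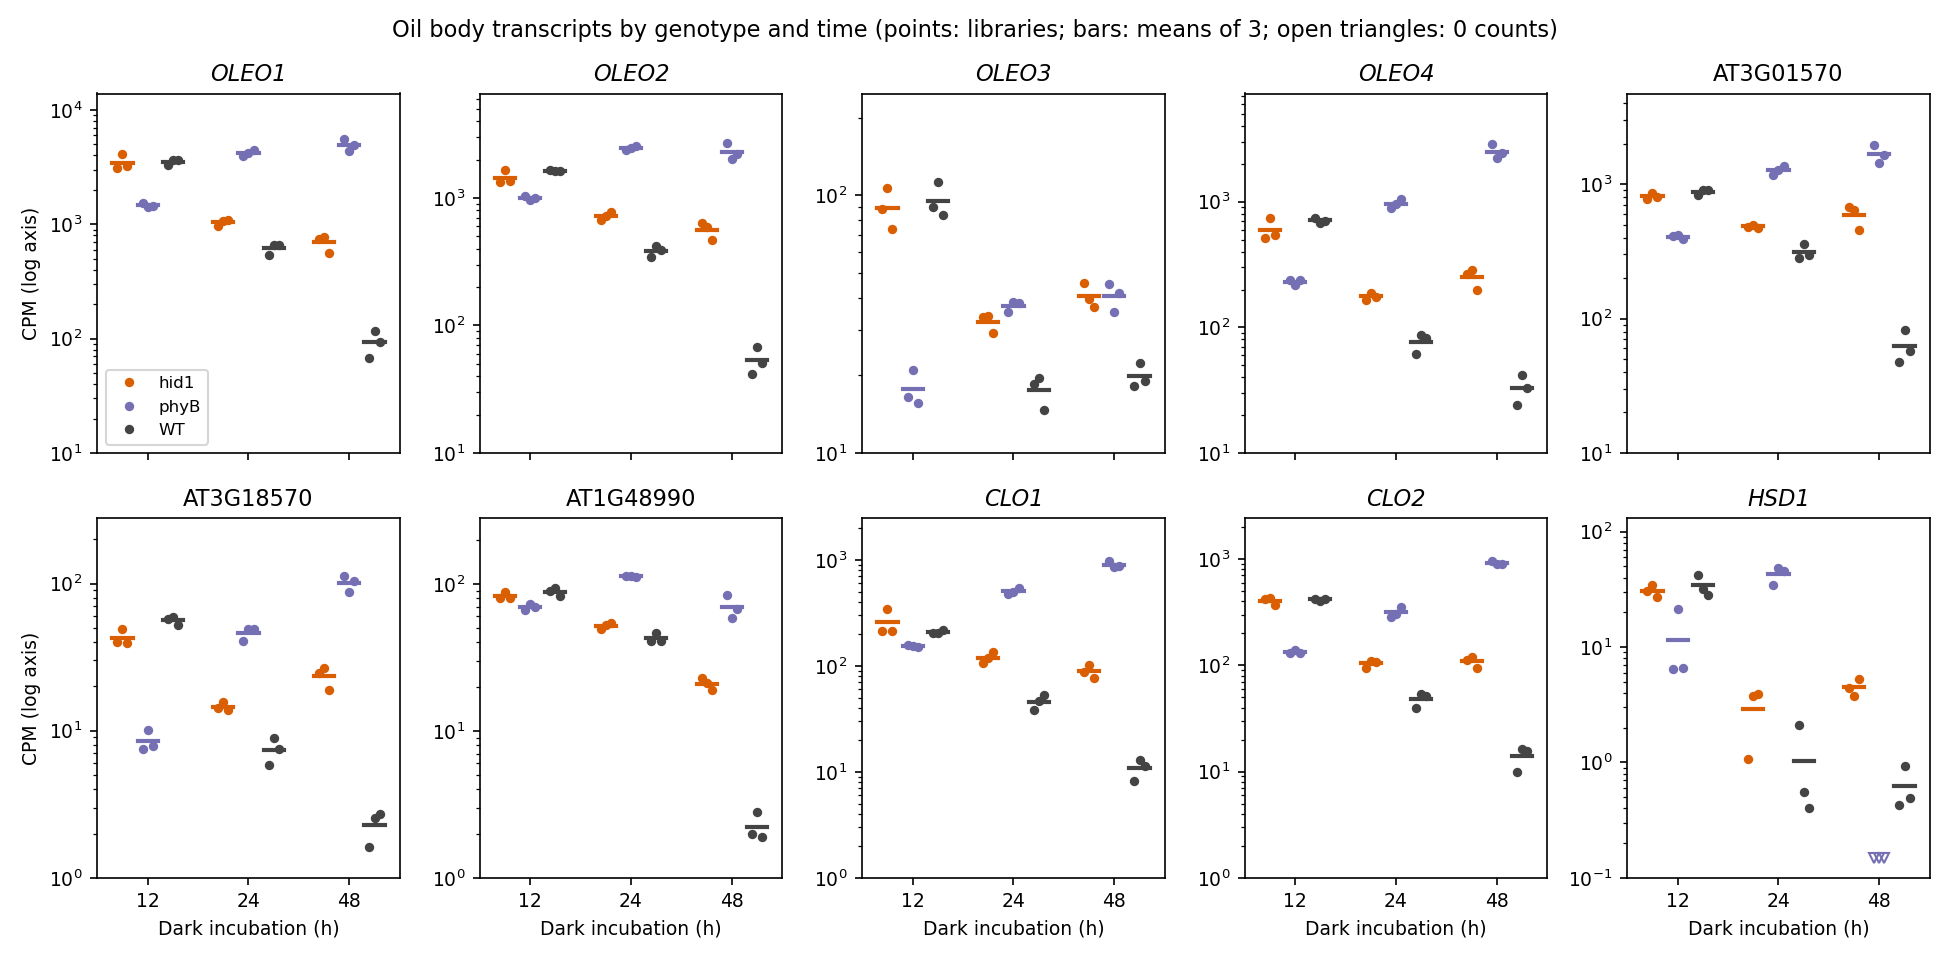
Level of each of the 10 genes in CPM (vertical log axis, 1 panel per gene) after 12, 24 and 48 h of darkness in hid1, phyB and WT libraries (points; bars are means of 3, open triangles mark libraries at 0 counts). WT means fall from left to right in 9 panels and level off after 24 h for OLEO3, while phyB climbs between 12 and 24 h in all 10.

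Whether loss of HID1 alters the oil body transcripts was asked at each time. At 12 h the members took 0.670 ± 0.0648% of counts in hid1 and 0.721 ± 0.0153% in WT. Replicate 2 of hid1 stood apart, with 0.745% against 0.628 and 0.638% in replicates 1 and 3, and with 7.16% of counts on the storage protein genes against 4.53 and 4.41%. OLEO1 had 3093, 4087 and 3207 CPM in hid1, against 3268, 3658 and 3615 CPM in WT, and the 2 groups overlapped (log2 -0.02 ± 0.14). One of the 10, AT3G18570, was lower in hid1, against 5.91% of all genes that were lower, with 40.4, 48.8 and 39.7 CPM in hid1 and 57.4, 59.0 and 52.5 CPM in WT (log2 -0.39 ± 0.12, adjusted p = 0.029). That call was lost without replicate 1 or 2 of WT or without replicate 1 or 3 of hid1 (adjusted p = 0.078 to 0.14), and the count was then 0 of 10. The other 9 had log2 fold changes between -0.25 and 0.29, and without replicate 2 of hid1 CLO1, the highest of them, was at 0.025 and OLEO4, the lowest, at -0.42, while AT3G18570 was called (-0.49).

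At 24 h, 9 of the 10 members were higher in hid1 than in WT, against 8.46% of all genes that were higher, with a median log2 fold change of 0.94 beside 0.00 over all genes. OLEO1 had 969, 1075 and 1083 CPM in hid1, against 542, 663 and 659 CPM in WT, with no overlap (log2 0.75 ± 0.14, adjusted p = 0.00048). CLO1 differed most among those that passed, at 105, 119 and 135 CPM in hid1 against 38.1, 46.1 and 53.0 CPM in WT (log2 1.39 ± 0.15, adjusted p = 1.9e-07). OLEO4 was higher in hid1 than in WT by 1.20 ± 0.16 and CLO2 by 1.12 ± 0.12. AT1G48990 was at the edge of the threshold (log2 0.28 ± 0.09, adjusted p = 0.037), and it lost the call in 5 of the 6 fits that left out a library of either group and with scaling by total counts (adjusted p = 0.063). HSD1 did not pass (1.07, 3.78 and 3.94 CPM in hid1, 2.11, 0.556 and 0.4 CPM in WT, log2 1.5 ± 0.64, adjusted p = 0.12), though it did without the filter on low counts (adjusted p = 0.024) and without replicate 1 of WT (0.046) or of hid1 (0.045).

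At 48 h all 10 members were higher in hid1 than in WT, against 36.3% of all genes that were higher, with a median log2 fold change over the 9 without HSD1 of 3.03, beside -0.06 over all genes. OLEO1 had 739.5, 780.1 and 561 CPM in hid1, against 67.5, 118 and 94.1 CPM in WT, a 7.45-fold difference (log2 2.90 ± 0.15, adjusted p = 1.5e-15). OLEO2 had 633, 596 and 470.0 CPM in hid1, against 41.7, 67.4 and 50.4 CPM in WT, a 10.6-fold difference. The lowest hid1 library stood well above the highest WT library in both. OLEO4, AT3G01570, AT3G18570, AT1G48990, both caleosins and HSD1 had log2 fold changes of 2.81 to 3.36. OLEO3 was 2.04-fold higher, with 45.7, 39.4 and 37.0 CPM in hid1 against 18.2, 22.4 and 19.1 CPM in WT (log2 1.03 ± 0.13).

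The 3 oleosins named here by locus alone kept to the same picture at 48 h. AT3G01570 had 674, 645 and 457 CPM in hid1, 1962, 1426 and 1636 CPM in phyB, and 47.7, 81.8 and 57.1 CPM in WT. AT3G18570 had 24.6, 26.8 and 18.8 CPM in hid1, 112, 87.9 and 104 CPM in phyB, and 1.61, 2.56 and 2.71 CPM in WT. AT1G48990 had 23.0, 21.1 and 18.8 CPM in hid1, 83.5, 58.4 and 67.1 CPM in phyB, and 1.97, 2.80 and 1.90 CPM in WT. In all 3 genes the genotypes did not overlap, with hid1 between phyB and WT.

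Over time the members fell less in hid1 than in WT. The summed share in hid1 was 0.670% of counts at 12 h, 0.303 ± 0.0158% at 24 h and 0.266 ± 0.0386% at 48 h. All 10 members fell in hid1 from 12 to 24 h, against 28.9% of all genes that were lower, by a median of 1.51. From 24 to 48 h, 7 of the 10 passed, 3 higher and 4 lower, against 59.8% of all genes that changed in either direction. AT3G18570 (log2 0.69 ± 0.14), OLEO4 (0.51 ± 0.15) and OLEO3 (0.34 ± 0.13) were higher at 48 h, and AT1G48990 (-1.30 ± 0.10), OLEO1 (-0.59 ± 0.14), CLO1 (-0.43 ± 0.15) and OLEO2 (-0.35 ± 0.13) were lower. Without replicate 3 of hid1 at 24 h the count was 4, since OLEO2, OLEO3 and CLO1 no longer passed. OLEO3 was also lost without replicate 1 of hid1 at 48 h (adjusted p = 0.16), and OLEO2 (0.14) and CLO1 (0.075) without replicate 3. AT3G01570 did not pass (0.29 ± 0.14, adjusted p = 0.078). It was called higher in edgeR with the scaling of DESeq2 (adjusted p = 0.047), with total counts (0.048), without the filter (0.031) and with only the groups compared (0.034). The same call was made in DESeq2 (0.043) and in edgeR without replicate 3 of hid1 at 48 h (0.0084). The change from 12 to 24 h differed between hid1 and WT for 9 of the 10 members, all higher in hid1, against 6.77% of all genes that were higher (AT1G48990 at 0.38 ± 0.13, adjusted p = 0.048, lost the call in 9 of 12 fits without a library), and the change from 24 to 48 h for 8, all higher in hid1, against 30.5%. OLEO3 (difference 0.16 ± 0.19) and HSD1 (1.31 ± 0.96) were the members whose later change did not differ past the threshold. HSD1 did pass when its counts were summed with those of its copy (2.16, adjusted p = 0.024).

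**Figure D3:**
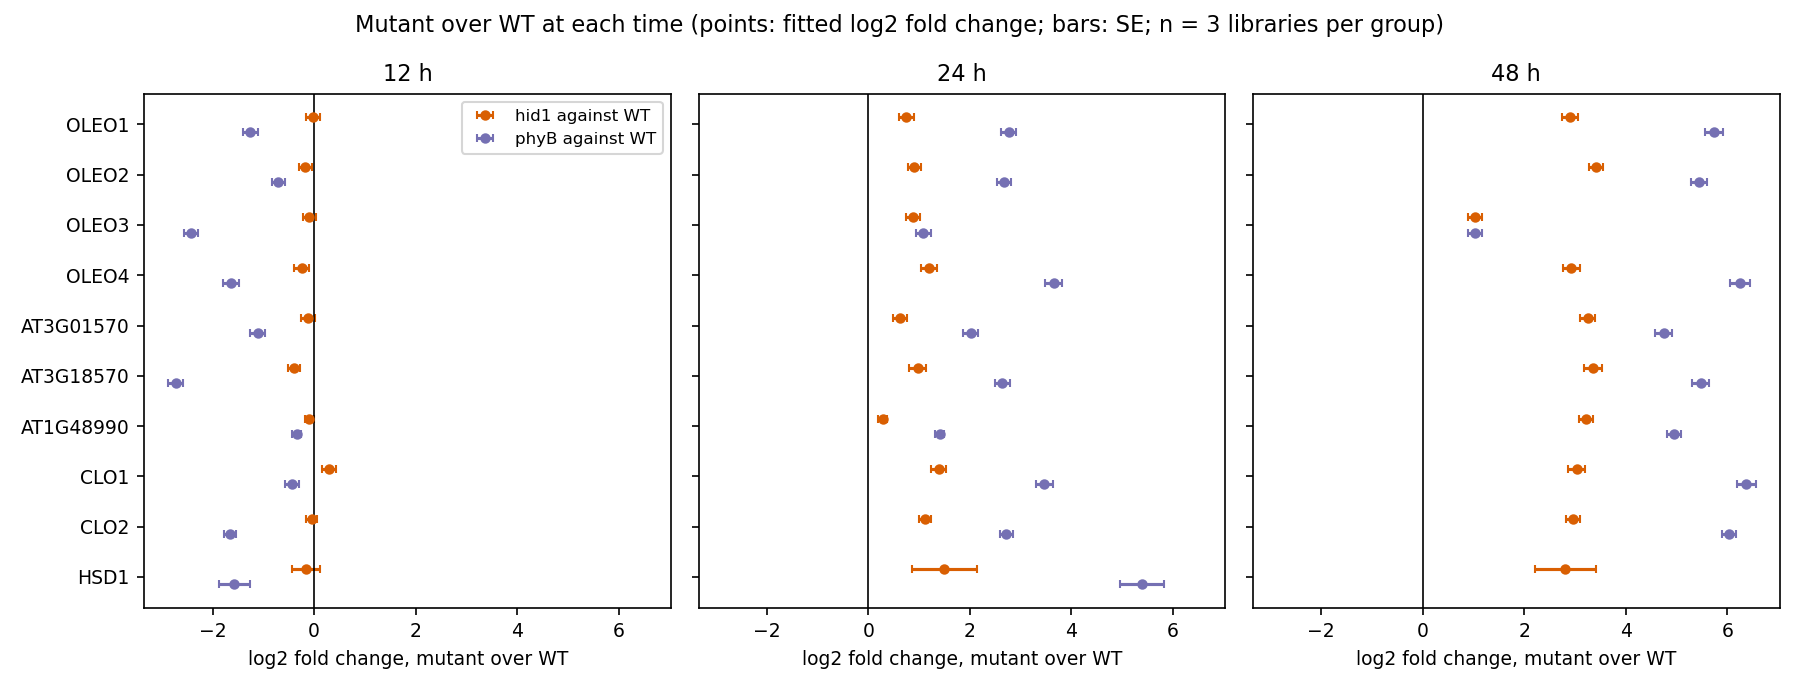
Fitted log2 fold change over WT (horizontal axis, bars are SE, n = 3 libraries per group) of each member in hid1 and phyB seeds at 12, 24 and 48 h. The phyB points lie left of 0 for all 10 members at 12 h and right of 0 for the members drawn at 24 and 48 h, hid1 points move right from 12 to 48 h for all 10, and HSD1 in phyB at 48 h is left out because it has 0 counts.

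In phyB seeds the members were low at 12 h and high later. At 12 h all 10 members were lower in phyB than in WT, against 34.2% of all genes that were lower, with a median log2 fold change of -1.41 beside -0.05 over all genes. OLEO1 had 1535, 1425 and 1449 CPM in phyB, against 3268, 3658 and 3615 CPM in WT (log2 -1.26 ± 0.14, adjusted p = 1.7e-08). Furthest below WT were AT3G18570 and OLEO3. AT3G18570 had 7.51, 10.1 and 7.85 CPM in phyB against 57.4, 59.0 and 52.5 CPM in WT (log2 -2.73 ± 0.15). OLEO3 had 16.5, 21.0 and 15.6 CPM in phyB against 89.8, 112 and 83.6 CPM in WT (log2 -2.43 ± 0.14). The groups did not overlap for any of these. AT1G48990 (-0.34 ± 0.09) and CLO1 (-0.44 ± 0.14) differed least, and with scaling by total counts CLO1 no longer passed (-0.29, adjusted p = 0.063). OLEO2 had 1031, 973 and 997 CPM in phyB, against 1667, 1616 and 1616 CPM in WT, a 1.63-fold lower level. These are the phyB libraries whose mitochondrial and chloroplast shares differed from those of the other 12 h libraries.

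By 24 h all 10 members were higher in phyB than in WT, against 31.8% of all genes that were higher, with a median log2 fold change of 2.70 beside 0.00 over all genes. OLEO1 had 3972, 4208 and 4453 CPM in phyB, against 542, 663 and 659 CPM in WT, a 6.78-fold difference. OLEO4 had 887, 963 and 1048 CPM in phyB, against 61.3, 87.3 and 81.6 CPM in WT, a 12.6-fold difference, and CLO1 had 475, 499 and 547 CPM in phyB, against 38.1, 46.1 and 53.0 CPM in WT, an 11.1-fold difference. Every phyB library lay above every WT library. OLEO3 (log2 1.08 ± 0.14) and AT1G48990 (1.40 ± 0.09) differed least.

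At 48 h, 9 of the 10 members were higher in phyB than in WT, against 40.0% of all genes that were higher, and HSD1 had 0 counts in all 3 phyB libraries. Without HSD1 the median log2 fold change of the other 9 was 5.48, beside -0.24 over all genes. CLO1 had 969, 855 and 871 CPM in phyB, against 8.22, 12.8 and 11.4 CPM in WT, an 83.1-fold difference (log2 6.38 ± 0.19, adjusted p = 4.1e-22). OLEO4 was 76.0-fold higher, with 2861, 2217 and 2445 CPM in phyB against 24.0, 41.7 and 33.1 CPM in WT, and CLO2 was 65.6-fold higher, with 960.0, 897 and 899 CPM in phyB against 10.01, 16.4 and 15.7 CPM in WT. OLEO1 stood at 5582, 4390.3 and 4930.1 CPM in phyB, 53.4-fold above WT. These folds include the low scaling factors of phyB at 48 h. In the authors' FPKM the ratios of phyB over WT were 52.05 for CLO1, 47.3 for OLEO4, 40.3 for CLO2 and 33.4 for OLEO1. OLEO3 differed by 2.05-fold, with 45.3, 35.2 and 41.8 CPM in phyB, and its ratio in FPKM was 1.28. The members took 0.942 ± 0.0934% of counts in phyB and 0.0327 ± 0.00829% in WT, and the 9 seed storage protein genes took 21.9 to 23.6% in phyB and 0.687 to 1.21% in WT.

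Within phyB all 10 members rose from 12 to 24 h, against 27.7% of all genes that were higher, by log2 0.70 (AT1G48990) to 2.44 (AT3G18570). From 24 to 48 h, 7 of the 10 passed, against 61.7% of all genes that changed in either direction. CLO2 (1.54 ± 0.12), OLEO4 (1.38 ± 0.15), AT3G18570 (1.13 ± 0.12), CLO1 (0.83 ± 0.14) and AT3G01570 (0.40 ± 0.14) were higher at 48 h, AT1G48990 was lower (-0.69 ± 0.09), and the 7th is HSD1 at 0 counts. OLEO1 (0.24 ± 0.14), OLEO2 (-0.10 ± 0.13) and OLEO3 (0.13 ± 0.14) did not pass. The call on AT3G01570 was lost without replicate 1 of phyB at 24 h (adjusted p = 0.067) or at 48 h (0.12). Scaled by total counts instead, which sets the all-gene median at -0.46, the fold changes of OLEO1 (-0.25), OLEO3 (-0.36) and AT3G01570 (-0.09) turned negative. The change from 12 to 24 h was higher in phyB than in WT for all 10 members, against 30.3% of all genes that were higher. From 24 to 48 h it was higher for 8, against 35.4% of all genes, with OLEO3 (-0.05 ± 0.20) not past the threshold (-0.51, adjusted p = 0.012, with scaling by total counts) and HSD1 lower because phyB was at 0 counts.

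The 2 mutants were also set against each other. At 12 h all 10 members were higher in hid1 than in phyB, against 33.9% of all genes that were higher, with log2 fold changes of 0.25 (AT1G48990) to 2.33 (AT3G18570 and OLEO3). The call on AT1G48990 was lost with scaling by total counts (adjusted p = 0.39), without replicate 2 of hid1 (0.084) or without replicate 1 of phyB (0.070). At 24 h, 9 of the 10 were lower in hid1, against 31.5% of all genes that were lower, with OLEO1 at 969, 1075 and 1083 CPM in hid1 and 3972, 4208 and 4453 CPM in phyB (log2 -2.01 ± 0.15). At 48 h, 8 of the 10 were lower in hid1, against 37.9% of all genes that were lower. CLO1 (-3.34 ± 0.16) and OLEO4 (-3.32 ± 0.17) differed most, and AT3G01570 (-1.50 ± 0.14) and AT1G48990 (-1.73 ± 0.10) least among the 8. HSD1 passed in the other direction because phyB had 0 counts. The fold changes of each mutant over WT share the WT levels, while those between the mutants do not use them. All tests come from 1 fit, whose spread per gene and scaling draw on all 27 libraries.

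OLEO3 departed from the other oleosins. Over the 27 libraries its log2 level followed the mean of the other 9 members with Pearson's r = 0.653, against 0.857 to 0.981 for OLEO1, OLEO2, OLEO4, AT3G01570, AT3G18570, AT1G48990, CLO1 and CLO2 and 0.491 for HSD1. These are descriptions over libraries that share groups. They include the 3 phyB libraries of 48 h, where HSD1 had 0 counts and could not be read. Those values enter the r of HSD1 and the mean set against each other member. At 48 h OLEO3 did not pass between hid1 and phyB, at 40.7 ± 4.50 CPM in hid1 and 40.8 ± 5.10 CPM in phyB (log2 0.00 in size, SE 0.13, adjusted p = 1.0), and at 24 h hid1 had 32.3 ± 2.64 CPM and phyB 37.3 ± 1.68 CPM (log2 -0.21 ± 0.13, adjusted p = 0.18). The libraries of 24 h did not overlap, and in a fit of only those groups the difference passed (-0.21, adjusted p = 0.010). With scaling by total counts OLEO3 (AT5G51210) was 0.67 higher on the log2 scale in hid1 than in phyB at 48 h (adjusted p = 8.0e-06), and its phyB difference from WT at 48 h was 0.35. Its promoter window held as many ACGTG sites as that of OLEO1.

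HSD1 could not be read in phyB at 48 h. HSD1 and its copy AT5G50700 had 0 counts in all 3 of those libraries, although HSD1 had 34.4, 48.8 and 46.0 CPM in phyB at 24 h and the other 9 members were high at 48 h. Of 20 nuclear genes whose exonic 100-base stretches all recur in the genome and that had at least 10 counts in each of the other 8 groups, 7 had 0 counts in phyB at 48 h, or 35.0%. Among 15953 genes with no recurring stretch it was 5, or 0.0313%. In the other 8 groups 0 of 11 or 12 such repeated genes were at 0. The authors' handling of reads with several matches is not known here, so no fold change is given for HSD1 in phyB at 48 h. The split between the copies also moved between replicates: in WT at 12 h HSD1 and AT5G50700 had 833 and 250 counts in replicate 1, 558 and 24 in replicate 2, and 487 and 91 in replicate 3.

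**Figure D4:**
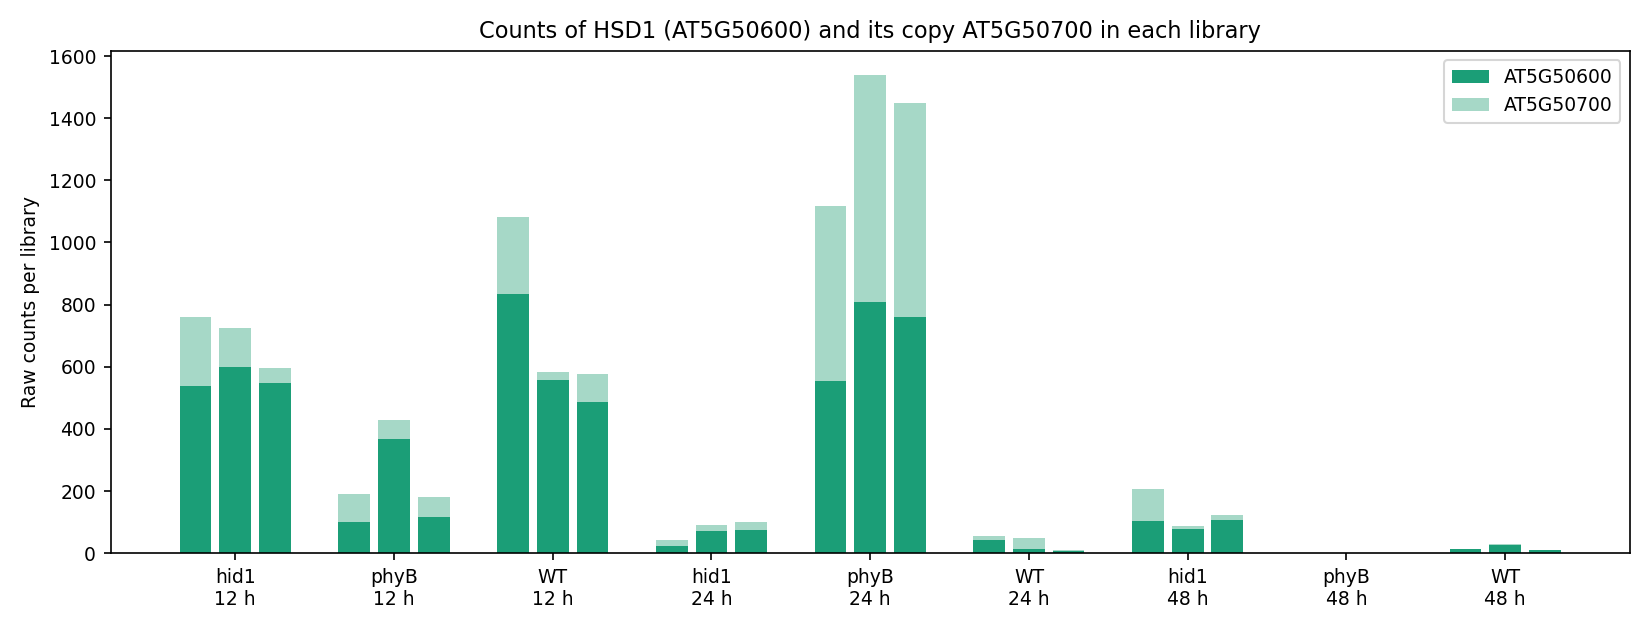
Raw counts of HSD1 (AT5G50600, dark) and its copy AT5G50700 (light) stacked for each of the 3 libraries of hid1, phyB and WT at 12, 24 and 48 h. The sum is highest in phyB at 24 h and 0 in all 3 phyB libraries of 48 h.

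With both copies summed, the counts of HSD1 (AT5G50600) were lower in phyB than in WT at 12 h (log2 -1.37, adjusted p = 0.00012) and higher at 24 h (5.52, adjusted p = 8.6e-13). They were higher in hid1 than in WT at 48 h (3.30, adjusted p = 5.4e-06) and did not pass at 24 h (1.14, adjusted p = 0.15). The change from 24 to 48 h in hid1 minus that in WT passed for the summed copies (2.16, adjusted p = 0.024).

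Other coat genes of the same families were described from a list of 22 further oleosins, caleosins and steroleosins, of which 11, the copy AT5G50700 among them, had enough counts. At 48 h, 6 of the 11 were higher and 4 lower in hid1 than in WT, against 36.3% of all genes that were higher and 43.0% that were lower, with a median log2 fold change of 2.51 beside -0.06 over all genes, and 6 were higher and 4 lower in phyB, against 40.0% and 49.4%, with a median of 1.70 beside -0.24. The steroleosins HSD5 (AT4G10020, 2.61 ± 0.10 in hid1, 4.72 ± 0.11 in phyB) and HSD6 (AT5G50770, 3.15 ± 0.12 in hid1, 5.01 ± 0.11 in phyB) and the oleosin AT2G25890 (3.60 ± 0.13 in hid1, 5.41 ± 0.14 in phyB) were among the higher. At 12 h, 5 of the 11 were lower in phyB than in WT, against 34.2% of all genes, and none was higher, HSD6 at -1.43 ± 0.11. The caleosin CLO3 (AT2G33380), known as a stress-induced gene of leaves, had 1, 0 and 0 counts in hid1 and in phyB at 48 h, against 290, 299 and 159 counts in WT, and at most 3 counts in any library outside WT at 48 h.

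Among 18 genes of lipid droplet formation and turnover, 12 were higher and 5 lower in hid1 than in WT at 48 h. This was against 36.3% and 43.0% of all genes, with a median log2 of 0.34 beside -0.06 over all genes. In phyB 11 were higher and 5 lower, against 40.0% and 49.4%, with a median of 0.83 beside -0.24. SEIPIN1 (AT5G16460), an endoplasmic reticulum protein of droplet formation, was higher by 3.22 ± 0.15 in hid1 and 5.55 ± 0.14 in phyB. The seed lipid droplet protein SLDP1 (AT1G65090) was higher by 3.24 ± 0.12 in hid1 and 4.68 ± 0.12 in phyB. OBL1 (AT3G14360), an oil body lipase, was higher by 2.59 ± 0.09 in hid1. LDAP2 (AT2G47780), of the lipid droplet proteins known from leaves, had a log2 fold change of -3.52 ± 0.10 in phyB. At 12 h SLDP2 (AT5G36100) had a log2 fold change of -1.67 ± 0.09 in phyB over WT, while LDAP3 (AT3G05500, 2.14 ± 0.09) and LDAP1 (AT1G67360, 1.64 ± 0.11) were higher.

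Of 16 regulators of seed maturation, 11 were tested. In hid1, 8 were higher and 1 lower than in WT at 48 h, against 36.3% and 43.0% of all genes. In phyB, 9 were higher and 1 lower, against 40.0% and 49.4%. ABI3 (AT3G24650), the B3 factor of late maturation, was higher by 2.92 ± 0.08 in hid1 and 3.79 ± 0.08 in phyB. ABI5 (AT2G36270), a bZIP factor of abscisic acid response, was higher by 2.93 ± 0.07 in hid1 and 4.05 ± 0.07 in phyB. The bZIP factor EEL (AT2G41070) was higher by 1.99 ± 0.11 in hid1 and 3.79 ± 0.12 in phyB, and the seed heat shock factor HSFA9 (AT5G54070) by 6.99 ± 0.19 in phyB. At 12 h, 3 of the 11 were lower in phyB than in WT, against 34.2% of all genes that were lower, and 5 were higher. Among all genes called in this comparison, 46.7% were higher. The 11 regulators had a median log2 fold change of 0.09, beside -0.05 over all genes. EEL (-2.04 ± 0.13) and HSFA9 (-2.06 ± 0.14) were among the lower, while ABI3 was 0.26 higher and ABI5 was not past the threshold (-0.03).

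The genes whose levels followed the members most closely over the 27 libraries, by Pearson's r with the members' mean standardised log2 level, were AT1G07645 (DSI-1VOC, r = 0.989), the ferritin FER2 (AT3G11050, r = 0.988), HSD5 (r = 0.987), AT5G01300 (r = 0.986), AT5G43770 (r = 0.982) and AT2G19320 (r = 0.981).

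Markers of the seed parts moved with these comparisons. At 48 h all 6 endosperm markers were higher in hid1 than in WT, against 36.3% of all genes. In phyB 4 were higher, against 40.0%, and 2 lower, against 49.4%. Their summed shares were 0.340 to 0.369% of counts in hid1, 1.04 to 1.14% in phyB and 0.0901 to 0.0997% in WT. EPR1 carried most of the endosperm counts, with 2354473 over all 27 libraries, against 210217 for EXPA2, the next highest. It reached 16658 CPM, beside a highest summed level of 16706 CPM for the endosperm markers in phyB at 48 h. The summed share in phyB at 48 h thus mainly follows EPR1. The 8 embryo markers summed to 0.0849 to 0.0891% in hid1, 0.0228 to 0.0248% in phyB and 0.152 to 0.185% in WT at 48 h. In hid1, 2 of them were higher and 2 lower (median log2 0.06), against 36.3% and 43.0% of all genes. In phyB, 6 were lower (median -0.65), against 49.4% of all genes. PDF1 carried much of the sum in WT: without it the other 7 summed to 0.0420 to 0.0457% in hid1, 0.0207 to 0.0228% in phyB and 0.0413 to 0.0455% in WT. At 24 h, 5 of the 6 endosperm markers were higher in hid1 than in WT, against 8.46% of all genes, with summed shares of 0.380 to 0.450% in hid1 and 0.304 to 0.359% in WT. In phyB at 24 h, 3 endosperm markers were higher and 3 lower than in WT, against 31.8% and 34.6% of all genes. Of the 8 embryo markers 7 were lower, against 34.6%. At 12 h, 6 of the 8 embryo markers and 3 of the 6 endosperm markers were lower in phyB than in WT, against 34.2% of all genes. The endosperm markers had a median log2 fold change of -0.20, beside -0.05 over all genes. Of them 1 was higher, where 46.7% of all genes called were higher. In hid1 at 12 h the endosperm markers had log2 fold changes over WT of 0.00 to 2.21, with a median of 0.33. The embryo markers had -0.94 to 1.18, with a median of 0.31, and the median over all genes was 0.00. Of 5 seed coat markers 4 (BAN, TT12, TT2 and TT10) had 3 to 9 counts over all 27 libraries, and the 5th, TTG2 (AT2G37260), had a log2 fold change of -5.71 in phyB over WT at 48 h. Of 2 pollen coat oleosin genes, GRP19 had 4 counts in all and GRP17 79. The part of these shifts in the oil body results was not tested.

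The scale set for the libraries moved both the split of calls over all genes and the fold changes of the members. With total counts in place of trimmed means, the share of called genes that were higher was 56.7% in place of 46.7% for phyB against WT at 12 h, 32.4% in place of 47.9% at 24 h and 29.1% in place of 44.8% at 48 h. For hid1 against WT it was 37.9% in place of 55.2% at 24 h. Over time it was 71.9% in place of 50.5% in WT and 76.0% in place of 50.9% in hid1 for 24 h against 12 h, and 19.9% in place of 50.2% in phyB for 48 h against 24 h. For the change in phyB minus that in WT it was 29.9% in place of 49.2% from 12 to 24 h and 31.2% in place of 49.2% from 24 to 48 h. For hid1 against phyB it was 41.4% in place of 53.4% at 12 h, 64.3% in place of 52.1% at 24 h and 77.0% in place of 52.0% at 48 h. The median log2 fold change of the 9 members without HSD1 in phyB against WT at 48 h was then 4.79 in place of 5.48. The all-gene median was -0.92 in place of -0.24. For phyB at 48 h against 24 h the median of the 9 was -0.09 in place of 0.40, with an all-gene median of -0.46 in place of 0.00.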

How the data were processed

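Poly(A) RNA of 27 seed libraries, 3 in each of 9 groups, was read as pairs, per the labels' protocols. The authors deposited a table of raw counts per gene and a table of mean FPKM per group, per the file headers. The submitters' processing notes name fastp, HISAT2 2.1.0, SAMtools 1.6 and the TAIR10 genome. The counting tool, and how it treated strand and reads with several matches, is not stated there.

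From the counts, 1 edgeR 4.0.16 (R 4.3.3) quasi-likelihood fit with TMM scaling was made on the 20465 genes that passed filterByExpr, 1 term for each group and 18 residual degrees of freedom in all. All 10 oil body genes passed. The 19 comparisons were tested two-sided with Benjamini-Hochberg adjustment over all genes within each, at 0.05, and calls mean an adjusted p under that. CPM are scaled by TMM. The SE is the log2 fold change over the root of the F statistic. FPKM, from the authors, was used for levels within a group, for makeup and for ratios of phyB over WT at 48 h, and was not tested. The procedure was tested on simulated counts.

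The oil body genes and the gene lists were chosen with earlier results of these data known. Named genes are all 10 members, up to 4 genes with the smallest p per list and comparison, and the 6 most alike by correlation, with a few others named after their values were seen: CLO3, AT5G50700, LDAP1, LDAP3 and ABI3 and ABI5 at 12 h. Promoter windows and recurring 100-base stretches were read from the RefSeq genome TAIR10.1, while the count files carry no coordinates. The promoter window of AT1G48990 is not reported here. Counts on the members, 6167 to 223107 per library, set the precision of their values, and they vary with expression as well as depth. Replicate numbers are shared across groups; the correlation of same-numbered libraries was over 0.1 in all 3 pairs for hid1 against WT at 12 h (0.152 to 0.380) and 48 h (0.201 to 0.465) and for WT at 48 against 24 h (0.101 to 0.313), from the data and not from the labels. Replicates of a group differed by more than sampling noise (chi-square of 2.04 to 19.6 per degree of freedom over 27 pairs), so none was counted as a copy of another. Alternatives were DESeq2 1.42.0, other scalings, no filter, fewer groups, the replicate block and each library left out.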

Additional observations from a re-analysis of the deposited data

Results flagged for a closer look

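Changes over time that differed from those in WT flagged the oil body genes in both mutants. The change from 12 to 24 h in hid1 minus that in WT passed the edgeR test for 9 members, with a median difference of 1.09 on the log2 scale, against 6.77% of all genes that were higher, and AT1G48990 lost the call in 9 of 12 fits without a library. The change from 24 to 48 h passed for 8, against 30.5%, with a median of 2.00. The change from 12 to 24 h in phyB minus that in WT passed for 10 members, with a median difference of 3.96, against 30.3% of all genes that were higher, and that from 24 to 48 h for 9, of which HSD1 at 0 counts in phyB is 1 and the other 8 were higher, against 35.4% of all genes.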

How the results depend on the processing

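Of 1380 fold changes refitted with 1 library left out, 1327 kept their direction and their side of the threshold, 32 lost the call, 5 gained it and 16 changed sign. With a library left out, the members called for hid1 against WT at 12 h numbered 0 to 1, and for hid1 at 48 against 24 h 4 to 7. The fold changes that changed sign did not pass the test as reported. For hid1 against WT at 12 h, log2 ranged from -0.1574 to 0.05389 for OLEO1 (AT4G25140), from -0.2327 to 0.04235 for OLEO3 (AT5G51210), from -0.09549 to 0.01848 for CLO2 (AT5G55240) and from -0.2781 to 0.0224 for HSD1 (AT5G50600). HSD1 in WT at 48 against 24 h ranged from -1.136 to 0.3859, CLO2 in hid1 at 48 against 24 h from -0.005933 to 0.1551, OLEO3 in the phyB minus WT change from 24 to 48 h from -0.1299 to 0.06418, and OLEO3 in hid1 against phyB at 48 h from -0.09529 to 0.08058. That last value, 0.00 in size as reported, was 0.01376 with the scaling of DESeq2 in edgeR, 0.01356 in DESeq2, 0.03769 without the filter, 0.03015 with only the groups compared, 0.02702 without the phyB libraries of 12 and 24 h and 0.6704 with scaling by total counts. Scaling by total counts also turned phyB at 48 against 24 h to -0.2508 for OLEO1, -0.3601 for OLEO3 and -0.09012 for AT3G01570. The cause was not tested.

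The fit with the replicate block changed no member's call in any of the 19 comparisons: 190 of 190 fold changes kept direction and call. In that fit 9 members were higher in hid1 than in WT at 24 h, against 1854 of 20465 genes, and 10 at 48 h, against 7491. At 12 h 10 members were lower in phyB than in WT, where 13218 genes were called and 6178 of them were higher. At 24 h 10 were higher in phyB, against 6561 genes, and at 48 h 9 were higher, against 8203. The remaining call at 48 h, HSD1 as lower, rests on phyB libraries where HSD1 could not be read. In 12 of the 15 comparisons of 2 groups the replicate numbers did not pair the libraries by the correlation check, and in 5 of the 15 every library of the first group correlated best with its own number. Both alternatives on HSD1, leaving it out and adding up its copies, were chosen after seeing the data. Low counts limit HSD1 in WT after 24 h and AT3G18570 and AT1G48990 in WT at 48 h.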
